A study of Mus musculus with 2 samples.

Results

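Myc and 7 genes of polyamine metabolism, Odc1, Amd1, Srm, Sms, Azin1, Oaz1 and Sat1, were followed through the cell classes of injured and uninjured mouse muscle. They were taken by symbol from the deposited gene table, and all 8 were among its 28625 gene symbols. A single droplet library came from each condition, both from the tibialis anterior, a shin muscle, of C57B/6 mice 12 weeks old on standard chow, whose cells had been freed by protease digestion. The injured muscle was collected 24 hours after an intramuscular injection of 1.2% BaCl (barium chloride), a salt that makes muscle fibres degenerate. The uninjured control carries the same treatment text, and the sources used here do not say whether it was injected. They also give neither the sex of the mice nor how many were used for a library.

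Polyamines are small positively charged molecules, made from ornithine and methionine, that bind RNA and DNA and are needed for translation and growth. Ornithine decarboxylase makes putrescine, and spermidine synthase and spermine synthase then add aminopropyl groups that S-adenosylmethionine decarboxylase supplies. Antizyme binds ornithine decarboxylase and sends it to the proteasome, antizyme inhibitor frees it, and spermidine/spermine acetyltransferase begins polyamine breakdown and export. Myc is a transcription factor of growing cells that binds the E-box letters CACGTG together with Max, and Odc1 and Srm are among its known target genes.

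In the GRCm38 annotation, Myc lies at chr15:61985391-61990374 on the plus strand. Odc1, which encodes ornithine decarboxylase, lies at chr12:17544794-17551505 on the plus strand and holds a small nucleolar RNA gene. Its inhibitor antizyme is encoded by Oaz1 at chr10:80826656-80829290 on the plus strand, and antizyme inhibitor by Azin1 at chr15:38487427-38519266 on the minus strand. An antisense gene, Gm49077, overlaps Azin1, and the sources used here do not say whether reads were counted by strand. Amd1, the gene of S-adenosylmethionine decarboxylase, is at chr10:40287458-40302186 on the minus strand. Srm, for spermidine synthase, is at chr4:148591503-148594993 on the plus strand. Sms, for spermine synthase, at chrX:157443855-157492287, and Sat1, for the acetyltransferase, at chrX:155213132-155216449, both lie on the minus strand of the X chromosome. Amd1 has a near-identical copy, Amd2, which held 44 UMIs in the injured library and 38 in the uninjured library, against 1841 and 1638 for Amd1.

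RefSeq promoter windows of GRCm38.p6, running from 250 bases before to 50 bases after a gene start, were given for 5 of the 8 genes, and Sms had a window for each of its starts. Windows of Myc, Srm and Azin1 were not analysed here. The E-box CACGTG, which reads the same on both strands, was found in 1 of the 6 windows, upstream of Sms, against 7.15% of all 32851 windows. Windows of 3 genes are shown. Odc1 had the widest ratio of the 8 genes in a single class, Amd1 was lower in some injured classes and higher in another, and the Sms window carries the E-box, in capitals.
Odc1, chr12:17544623-17544922, plus strand: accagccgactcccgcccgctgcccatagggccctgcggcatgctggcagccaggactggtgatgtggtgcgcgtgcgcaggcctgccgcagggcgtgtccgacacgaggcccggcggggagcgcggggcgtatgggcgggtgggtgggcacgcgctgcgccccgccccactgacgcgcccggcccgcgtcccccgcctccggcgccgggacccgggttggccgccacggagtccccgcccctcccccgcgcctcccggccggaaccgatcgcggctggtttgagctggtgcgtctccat
Amd1, chr10:40302139-40302438, minus strand: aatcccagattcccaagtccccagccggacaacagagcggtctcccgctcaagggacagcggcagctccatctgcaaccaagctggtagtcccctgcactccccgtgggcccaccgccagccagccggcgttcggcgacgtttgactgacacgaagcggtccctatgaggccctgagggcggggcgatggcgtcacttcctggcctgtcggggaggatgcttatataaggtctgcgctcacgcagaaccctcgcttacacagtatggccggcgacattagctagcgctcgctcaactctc
Sms, chrX:157492238-157492537, minus strand: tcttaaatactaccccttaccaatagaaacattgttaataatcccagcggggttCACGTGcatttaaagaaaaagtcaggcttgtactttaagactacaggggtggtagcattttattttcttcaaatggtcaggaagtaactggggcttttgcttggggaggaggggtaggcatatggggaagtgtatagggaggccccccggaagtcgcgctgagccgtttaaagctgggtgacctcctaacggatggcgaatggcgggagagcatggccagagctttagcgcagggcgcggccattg
No CACGTG in the Odc1 and Amd1 windows says only that these letters are not in those 300 bases.

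After filtering, 4260 injured and 5139 uninjured cells remained, with medians of 7268 and 3156 unique molecular identifiers (UMIs) per cell. The barcodes of the libraries had 33 sequences in common. Xist had 0 UMIs in the injured library and 16575 in the uninjured library, and Ddx3y had 2138 and 0, so the libraries also differed in sex-linked transcripts and the animals' sex and injury cannot be told apart. Clusters were named from marker genes, and a class carries the ending "-like" because the names were rebuilt here. At least 50 cells in each library were found for 5 classes: macrophage and monocyte-like cells (2478 injured, 133 uninjured), endothelial-like cells (465 and 2672), fibro-adipogenic progenitor-like cells (423 and 774), tenocyte-like cells (153 and 285) and glial-like cells (52 and 250). At least 9 markers of each class's own list reached 50 counts per 1000000 UMIs in both libraries. Neutrophil-like cells reached that size only in the injured library (83), and satellite cell-like (251) and lymphatic endothelial-like cells (51) only in the uninjured library.

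Levels are the UMIs of a gene per 1000000 UMIs summed over the cells of a class (CPM), with exact Poisson intervals, and ratios are injured over uninjured with exact binomial intervals. The intervals are at 95%, for counting error alone. With 1 library in each condition there was no replicate check and no test, so a gene was called higher or lower by size, at 2-fold. Different clusters held most of a class in the 2 libraries. Injured fibro-adipogenic progenitor-like cells sat in cluster 10 (403 of 423 cells) and uninjured ones in clusters 7, 16 and 27. Injured tenocyte-like cells were in cluster 20 and uninjured ones in cluster 14. Injured endothelial-like cells were mostly in cluster 12 (354 cells), and 117 of the 133 uninjured macrophage and monocyte-like cells were in cluster 18, which held 45 injured cells. Clusters 12, 18 and 21, each of 1 class with under 50 cells in 1 library, were compared within themselves after the data were seen.

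Odc1 and Srm were at least 2-fold higher in all 5 injured classes, and Myc in 3 of them, the endothelial-like, fibro-adipogenic progenitor-like and tenocyte-like cells. Oaz1 and Amd1 lay within 2-fold in every class, and Sat1 was lower in every class but past 2-fold only in glial-like cells. Of the 8 genes, 3 were called higher and 0 lower in macrophage and monocyte-like cells, where 8.51% of 10150 genes tested were higher and 23.6% lower. In endothelial-like cells the counts were 3 and 0, against 10.8% and 19.9% of all genes. Fibro-adipogenic progenitor-like cells had 4 higher and 0 lower, where 15.4% of genes were higher and 28.2% lower. Tenocyte-like cells had 3 and 0, against 12.7% and 18.2%, and glial-like cells 2 and 1, against 8.54% and 21.7%. Over all cells kept, 3 were higher and 0 lower, against 11.9% and 38.7%. The median log2 ratio of the 8 genes was 0.09, 0.73, 0.96, 0.45 and 0.74 in the 5 classes, in the order above, while that of all genes tested was between -0.26 and -0.07. Over genes with at least 50 UMIs in both libraries, the median was -0.16 in fibro-adipogenic progenitor-like cells (6071 genes) and 0.31 in glial-like cells (858 genes). Relative to those shifts the log2 ratios of Odc1, Srm and Sat1 were 2.58, 2.96 and -0.75 in fibro-adipogenic progenitor-like cells and 1.41, 1.83 and -1.75 in glial-like cells, with no call changed.

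**Figure D1:**
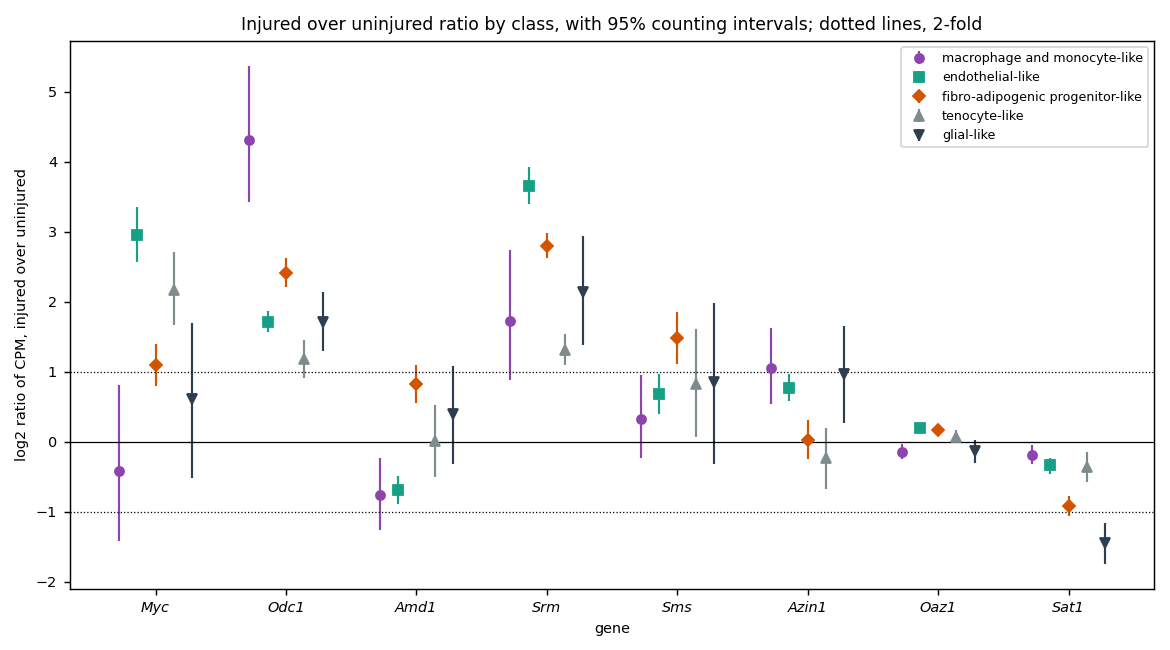
Log2 ratio of CPM, injured over uninjured, for each gene (horizontal axis) in 5 classes (symbols), with 95% counting intervals as bars and dotted lines at 2-fold. Odc1 and Srm lie above the upper dotted line in every class, Oaz1 lies near 0, and Sat1 lies below 0 in every class.

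Myc was higher in injured cells of vessels and connective tissue and not in macrophage and monocyte-like cells. Endothelial-like cells had 60.8 CPM in the injured library and 7.82 CPM in the uninjured library, a ratio of 7.77 (5.94 to 10.3). Tenocyte-like cells had 104.9 CPM in the injured and 23.3 CPM in the uninjured library, a ratio of 4.51 (3.17 to 6.58). In fibro-adipogenic progenitor-like cells the levels were 73.0 CPM injured and 34.1 CPM uninjured, a ratio of 2.14 (1.74 to 2.65), with the lower bound under 2-fold. In these 3 classes the intervals of the libraries did not overlap. Glial-like cells had 43.1 CPM injured and 28.0 CPM uninjured, from 13 and 20 UMIs, and macrophage and monocyte-like cells 10.9 and 14.5 CPM, from 199 and 8 UMIs. Their ratios of 1.54 (0.703 to 3.25) and 0.750 (0.373 to 1.76) did not exclude equal levels.

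Among the 6 injured classes of at least 50 cells, Myc was highest in tenocyte-like cells, above all others by its interval, and lowest in neutrophil-like cells at 6.47 CPM (1.76 to 16.6), which overlapped macrophage and monocyte-like cells. Among the 7 uninjured classes it was highest in satellite cell-like cells at 113 CPM (92.3 to 137) and lowest in endothelial-like cells. Satellite cells are the stem cells of muscle fibres, and their level stood above that of every other uninjured class. The uninjured endothelial level was more than 10 times lower than the satellite cell-like level in the same library, so free RNA could contribute to it, and this was not tested.

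Uninjured endothelial clusters differed in Myc. Cluster 11, led by Selp, Ackr1 and Vwf, genes known from venous endothelium, had 35.3 CPM of Myc (26.3 to 46.4) in the uninjured library. The other endothelial clusters with at least 50 uninjured cells had 1.32, 2.48, 2.35 and 0 CPM in clusters 1, 2, 5 and 24. Cluster 11 was also the only endothelial cluster with at least 50 cells in both libraries (54 injured, 350 uninjured). Within it the levels were 68.6 CPM injured and 35.3 CPM uninjured, and the ratio was 1.94 (1.24 to 3.02), against 7.77 for the class as a whole. Cluster 12, with most of the injured cells, held 33 uninjured ones. Its levels were 64.5 CPM injured and 48.97 CPM uninjured, from 186 and 6 UMIs, and the ratio of 1.32 (0.594 to 3.64) did not exclude equal levels. In glial-like cluster 21 Myc had 12 UMIs injured and 1 uninjured, a ratio of 14.4 (2.13 to 616).

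**Figure D2:**
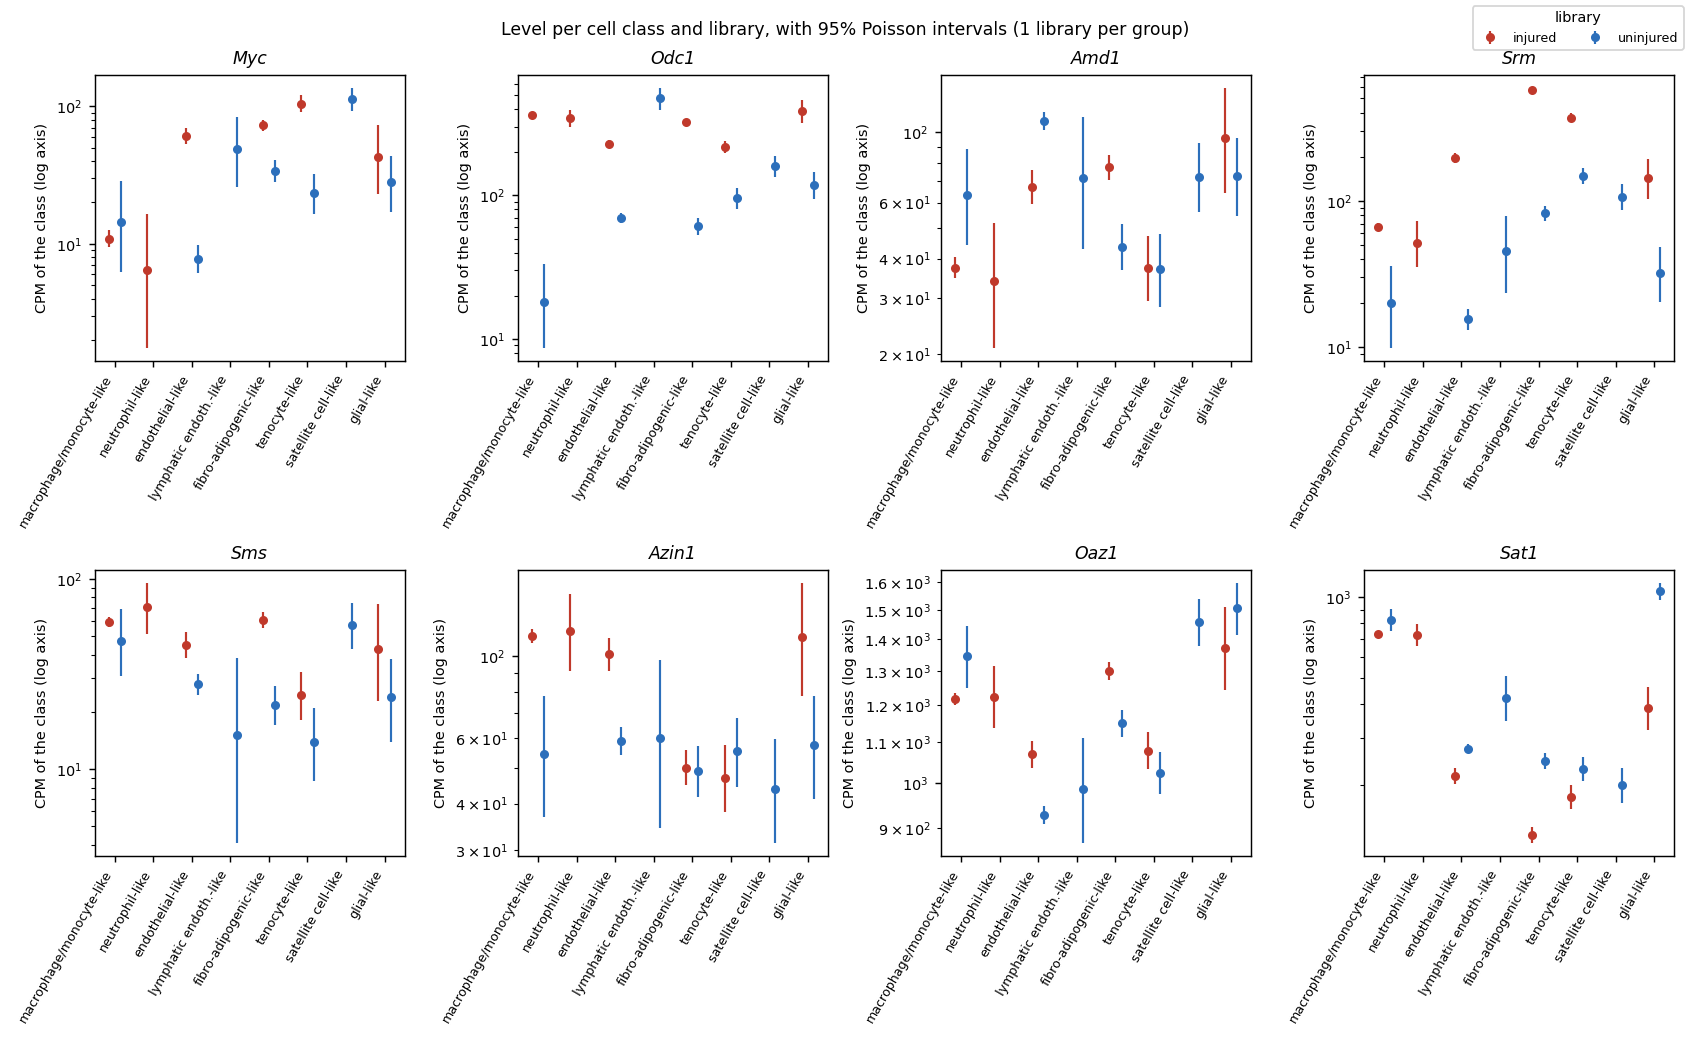
CPM of each gene (log axis) by cell class, with 95% Poisson intervals, injured in red and uninjured in blue, for classes of at least 50 cells in that library. Odc1 spans 217 to 388 CPM over the injured classes and 18.2 to 474 CPM over the uninjured ones, while Oaz1 stays between 929 and 1505 CPM in all of them.

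Odc1, the first enzyme of the pathway, differed most in macrophage and monocyte-like cells, with 362 CPM in the injured library and 18.2 CPM in the uninjured library. The ratio was 19.9 (10.8 to 41.5), and the uninjured value rested on 10 UMIs in 10 of 133 cells. Over the alternative settings this ratio stayed between 15.3 and 23.6. The uninjured level was more than 10 times lower than in lymphatic endothelial-like cells of the same library. Free RNA could therefore contribute to it, which was not tested. Fibro-adipogenic progenitor-like cells had 326 CPM injured and 61.0 CPM uninjured, a ratio of 5.34 (4.63 to 6.20). Endothelial-like cells had 228 and 69.3 CPM, a ratio of 3.29 (2.97 to 3.65), glial-like cells 388 and 118 CPM, also 3.29 (2.47 to 4.41), and tenocyte-like cells 217 and 95.6 CPM, 2.27 (1.88 to 2.75). None of these pairs of intervals overlapped.

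Over the 5 classes found in both libraries, Odc1 lay between 217 and 388 CPM in the injured library and between 18.2 and 118 CPM in the uninjured library. Glial-like, macrophage and monocyte-like and neutrophil-like cells (346 CPM) had the highest injured levels, and neighbours in that order were not told apart. Fibro-adipogenic progenitor-like cells came next, overlapping neutrophil-like cells but below macrophage and monocyte-like cells by their intervals. The highest uninjured level, 474 CPM in lymphatic endothelial-like cells, came to 58.7% from a single cell and was 210 CPM without it.

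Over the clusters with at least 50 injured macrophage and monocyte-like cells, Odc1 ranged upward from 162 CPM (144 to 183) in cluster 13, led by the monocyte genes Plac8 and Ly6c2. The highest value was 515 CPM (493 to 538) in cluster 6, led by the cytokine genes Il1a, Cxcl3 and Csf3. All 5 such clusters lay above the 20.3 CPM (9.75 to 37.4) of the uninjured cells in cluster 18, which was led by Retnla, Mgl2 and Cd163. The 45 injured cells of cluster 18 had 113 CPM (82.7 to 151), and the ratio within the cluster was 5.56 (2.77 to 12.3), against 19.9 for the class. In uninjured endothelial-like cells Odc1 was lowest in clusters 5 (9.42 CPM) and 24 (14.8 CPM), the first led by Hey1 and the second by Bmx and Gja5, genes known from arteries. It was 60.1 CPM in cluster 1, 84.96 CPM in cluster 2 and 154 CPM in cluster 11.

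The endothelial and tenocyte calls of Odc1 depended on which cells formed the class. Within cluster 11 Odc1 had 236 CPM injured and 154 CPM uninjured, a ratio of 1.54 (1.23 to 1.92), and within cluster 12 it had 249 and 106 CPM, 2.35 (1.36 to 4.43; 13 uninjured UMIs). The endothelial log2 ratio of 1.72 was 0.94 when cells were assigned by their own marker scores and 0.82 when each library was clustered alone. For tenocyte-like cells the log2 ratio of 1.18 was 0.52 and 0.62 in those settings, and also under 1 at Leiden resolution 0.5 (0.75) and with doublets kept (0.81). An uninjured cluster of 158 cells led by Col22a1, a collagen gene of the muscle-tendon junction, had all 10 tenocyte markers present but stayed unnamed, and its Odc1 level was 198 CPM (168 to 232).

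**Figure D3:**
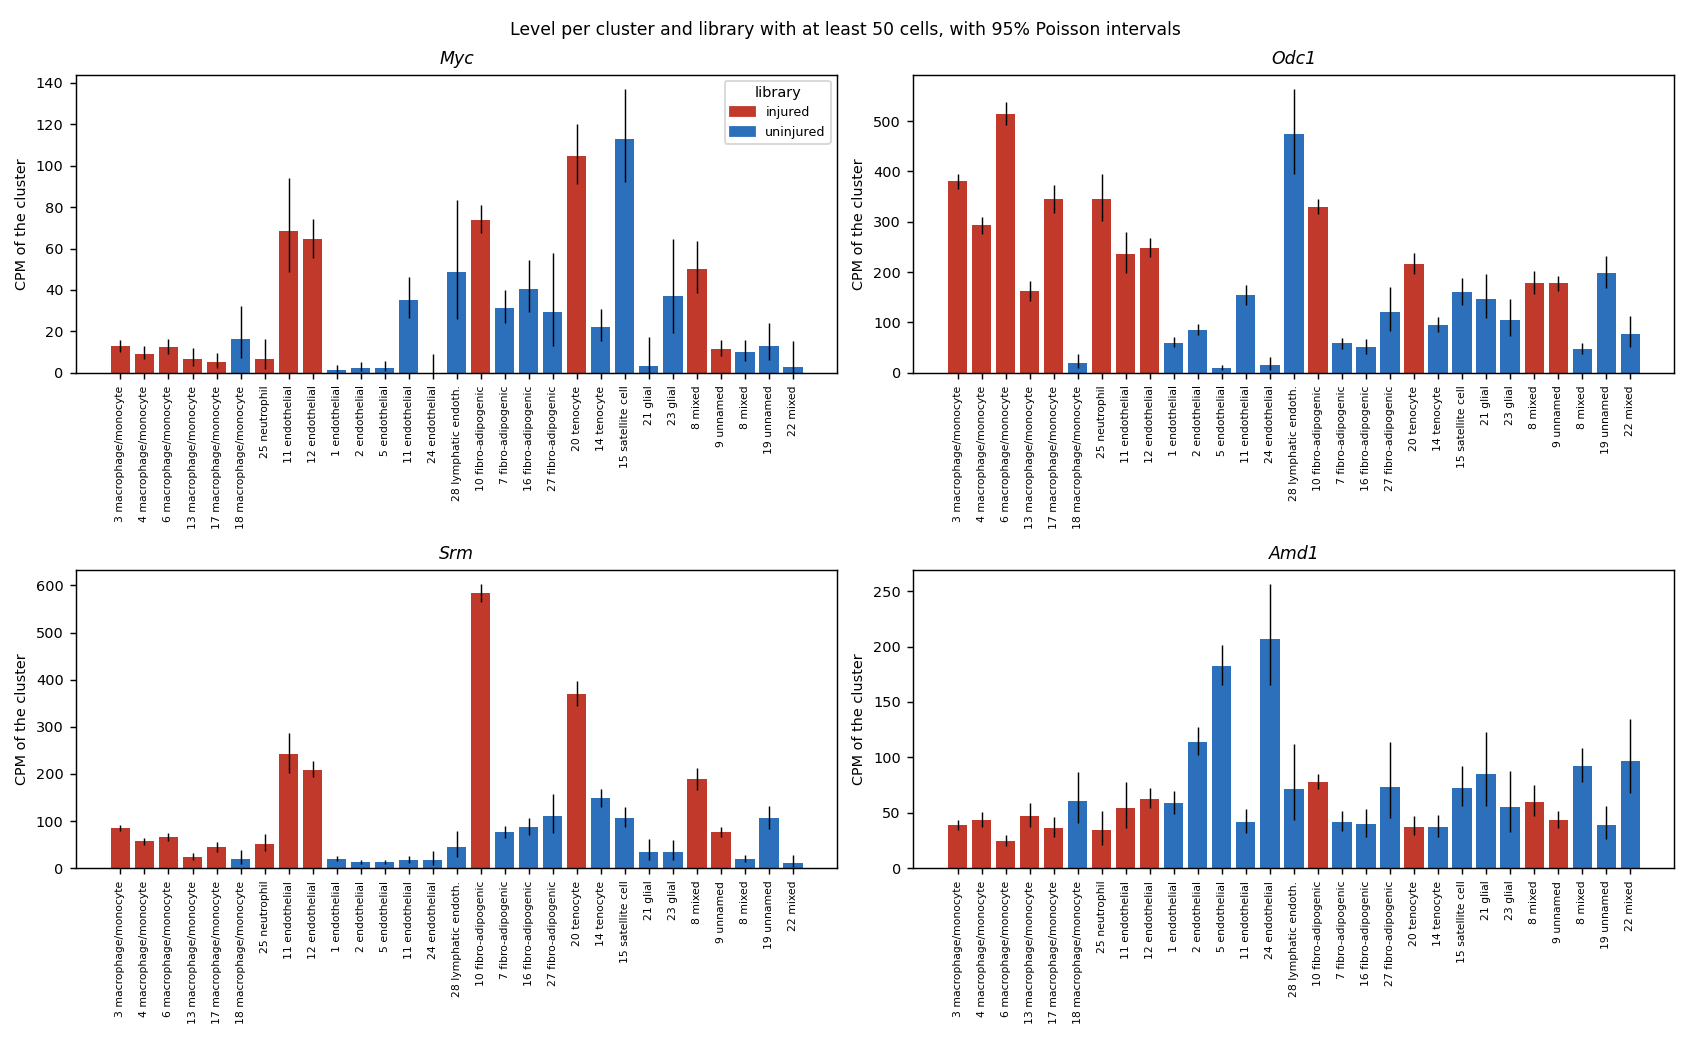
CPM of Myc, Odc1, Srm and Amd1 in every cluster with at least 50 cells in a library, with 95% Poisson intervals; injured bars are red and uninjured bars blue, and each bar is labelled with the cluster's number and class. Among uninjured endothelial clusters Myc and Odc1 are highest in cluster 11, and Amd1 is highest in clusters 5 and 24.

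The genes that control ornithine decarboxylase moved less. Azin1, whose product frees the enzyme from antizyme, had 113 CPM in injured and 54.5 CPM in uninjured macrophage and monocyte-like cells, a ratio of 2.08 (1.45 to 3.09). That call was kept in 8 of 13 alternative settings, and within cluster 18 the ratio was 0.671 (0.332 to 1.31), from 15 injured and 27 uninjured UMIs. Its ratio was 1.71 (1.499 to 1.95) in endothelial-like cells, with 101 CPM injured and 59.1 CPM uninjured, and 1.96 (1.21 to 3.17) in glial-like cells, with 113 and 57.5 CPM. In fibro-adipogenic progenitor-like cells it had 50.1 CPM injured and 49.0 CPM uninjured, and in tenocyte-like cells 47.0 and 55.3 CPM. The ratios of 1.02 (0.844 to 1.24) and 0.849 (0.628 to 1.15) did not exclude equal levels. Within endothelial clusters 11 and 12 the Azin1 ratios were 0.840 (0.528 to 1.30) and 2.48 (1.05 to 7.705; 5 uninjured UMIs). In glial cluster 21 its ratio was 2.14 (1.16 to 4.04). The 7 uninjured classes lay between 43.9 and 60.2 CPM, and no neighbours in that order were told apart, while the 6 injured classes divided into a high set of 101 CPM or more and the tenocyte-like and fibro-adipogenic progenitor-like cells. Clusters within a class could differ more, as uninjured endothelial clusters ranged from 33.8 CPM (26.6 to 42.2) in cluster 1 to 170 CPM (132 to 215) in cluster 24.

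Oaz1, the antizyme gene, had a UMI in 91.2% or more of the cells of every class. Its highest level was 1.28 times its lowest over the injured classes, the least of the 8 genes, and 1.62 times over the uninjured classes, where Azin1 varied less (1.37 times). Its levels were 1218 CPM injured and 1345 CPM uninjured in macrophage and monocyte-like cells, a ratio of 0.906 (0.842 to 0.976). In endothelial-like cells they were 1070 and 929 CPM, 1.15 (1.11 to 1.19), and in fibro-adipogenic progenitor-like cells 1300 and 1151 CPM, 1.13 (1.09 to 1.17). The differences went either way and all stayed small. Tenocyte-like cells had 1079 CPM injured and 1025 CPM uninjured, with a ratio of 1.05 (0.987 to 1.12), and glial-like cells 1372 and 1505 CPM, 0.911 (0.812 to 1.02). The glial direction turned, to 0.03 on the log2 scale, when ribosomal protein, mitochondrial and haemoglobin genes were left out of the total.

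Srm, which makes spermidine, was the other gene higher in every injured class. Fibro-adipogenic progenitor-like cells had 575 CPM injured and 82.5 CPM uninjured, a ratio of 6.96 (6.16 to 7.90). Endothelial-like cells had the largest ratio, 12.6 (10.6 to 15.2), from 196 CPM injured and 15.5 CPM uninjured. Within endothelial cluster 11 the ratio was as large, 13.4 (8.79 to 21.3), from 242 and 18.0 CPM, and within cluster 12 it was 5.13 (2.19 to 15.8; 5 uninjured UMIs). Tenocyte-like cells had 370 CPM injured and 148 CPM uninjured, 2.50 (2.15 to 2.90), glial-like cells 142 and 32.2 CPM, 4.42 (2.60 to 7.68), and macrophage and monocyte-like cells 66.4 and 19.99 CPM, 3.32 (1.85 to 6.67). The lower bound was under 2-fold only in macrophage and monocyte-like cells, whose uninjured value rested on 11 UMIs. Within cluster 18 of that class the Srm ratio was 6.28 (3.16 to 13.9), from 128 CPM injured and 20.3 CPM uninjured.

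In the injured library Srm was highest in fibro-adipogenic progenitor-like cells and then tenocyte-like cells, each above the next by its interval, and lowest in macrophage and monocyte-like and neutrophil-like cells (51.7 CPM). In the uninjured library it was highest in tenocyte-like cells, followed by satellite cell-like cells at 106 CPM (86.4 to 130), and lowest in endothelial-like cells.

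Amd1, which supplies the aminopropyl donor, was lower in some injured classes and higher in another. Endothelial-like cells had 67.4 CPM injured and 108 CPM uninjured, a ratio of 0.622 (0.540 to 0.714). Macrophage and monocyte-like cells had 37.4 and 63.6 CPM, 0.589 (0.419 to 0.852), and fibro-adipogenic progenitor-like cells 77.4 and 43.7 CPM, 1.77 (1.47 to 2.14). None of these reached 2-fold, but each interval excluded equal levels. Tenocyte-like cells had 37.5 CPM injured and 37.1 CPM uninjured, 1.01 (0.709 to 1.45; -0.02 on the log2 scale with median-ratio scaling), and glial-like cells 96.1 and 72.9 CPM, 1.32 (0.807 to 2.12).

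Among the 7 uninjured classes, Amd1 was highest in endothelial-like cells, and it differed between their clusters. The clusters led by arterial genes, where Odc1 was lowest, had the most. Cluster 5 had 183 CPM (165 to 202) and cluster 24 had 207 CPM (165 to 256). Cluster 11, where Odc1 was highest, had the lowest value, 41.5 CPM (31.7 to 53.4). Its interval overlapped that of cluster 1, at 58.7 CPM (49.2 to 69.6). Clusters 1 and 2 did not follow the opposed order of Odc1 and Amd1, since cluster 2 was above cluster 1 in both genes. Within cluster 11 Amd1 had 54.1 CPM injured and 41.5 CPM uninjured, a ratio of 1.30 (0.812 to 2.05), so the lower injured level of the class was not seen there. Within clusters 12 and 18 the Amd1 ratios were 0.855 (0.441 to 1.90) and 0.805 (0.433 to 1.47), which did not exclude equal levels.

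Sms, which makes spermine, was called higher only in fibro-adipogenic progenitor-like cells, with 60.8 CPM injured and 21.8 CPM uninjured, a ratio of 2.79 (2.17 to 3.63). Endothelial-like cells had 45.1 and 27.9 CPM, 1.62 (1.32 to 1.97), and tenocyte-like cells 24.5 and 13.8 CPM, 1.77 (1.05 to 3.07). In glial-like cells the levels were 43.1 CPM injured and 23.8 CPM uninjured, 1.81 (0.808 to 3.95), and in macrophage and monocyte-like cells 59.4 and 47.2 CPM, 1.26 (0.854 to 1.94). All 5 ratios were above 1, and those of the glial-like and macrophage and monocyte-like cells did not exclude equal levels. With cells thinned to 1000 UMIs the tenocyte value turned to -0.325 on the log2 scale. Whether the ratio in fibro-adipogenic progenitor-like cells differed from the others was not tested.

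Sat1, which acetylates spermidine and spermine, had a lower level in each of the 5 injured classes. Glial-like cells had 388 CPM injured and 1055 CPM uninjured, a 2.72-fold lower level (2.24 to 3.34). Fibro-adipogenic progenitor-like cells had 130 and 246 CPM, a ratio of 0.530 (0.481 to 0.583), and tenocyte-like cells 180 and 230 CPM, 0.784 (0.676 to 0.909). Endothelial-like cells had 216 and 272 CPM, 0.792 (0.731 to 0.857), and macrophage and monocyte-like cells 727 and 825 CPM, 0.882 (0.803 to 0.970). Every interval lay below 1, but when each library was clustered alone the ratio was 1.41 in macrophage and monocyte-like and 1.03 in endothelial-like cells. The macrophage and monocyte-like direction also depended on the clusters compared. In cluster 18, with 117 of the 133 uninjured cells, uninjured Sat1 was 523 CPM (461 to 591), from 257 of 454 UMIs. The clusters with at least 50 injured cells lay above that, from 630 CPM (cluster 3) to 1054 CPM (cluster 13). Cluster 13 held the other 16 uninjured cells. Within cluster 18 the ratio was 0.616 (0.495 to 0.763). Glial clusters differed in Sat1, with 734 CPM in cluster 21 and 1168 CPM in cluster 23 of the uninjured library, and 46 of the 52 injured glial-like cells were in cluster 21 against 106 of 250 uninjured ones. Within cluster 21 Sat1 had 407 CPM injured and 734 CPM uninjured, a ratio of 0.555 (0.437 to 0.6997) that did not reach 2-fold.

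In the injured library Sat1 was highest in macrophage and monocyte-like and neutrophil-like cells (723 CPM), which were not told apart, and lowest in fibro-adipogenic progenitor-like cells. The uninjured library had its highest level in glial-like cells and its lowest in satellite cell-like cells at 199 CPM (171 to 230), which overlapped tenocyte-like cells. Over all cells Sat1 was higher in the injured library, 488 against 293 CPM, although the level summed over each compared class was lower. In macrophage and monocyte-like cells that direction depended on the class assignment and on the clusters compared. Macrophage and monocyte-like cells were 2478 of the 4260 injured cells and 133 of the 5139 uninjured ones. Sat1 and Sms are on the X chromosome, and for them injury and the difference in sex-linked transcripts cannot be told apart.

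Cluster 8, a mixed cluster with markers of pericytes and smooth muscle beside endothelial ones, held 130 injured and 304 uninjured cells, and its make-up in each library was not compared. Its ratios were 9.83 (6.75 to 14.8) for Srm, 5.07 (2.90 to 9.38) for Myc, 3.80 (2.92 to 4.99) for Odc1, 1.78 (1.23 to 2.60) for Sms and 1.26 (0.963 to 1.65) for Azin1. Amd1 was lower there, at 0.652 (0.490 to 0.862), and Oaz1 and Sat1 had ratios of 0.957 (0.894 to 1.02) and 0.949 (0.825 to 1.09).

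The share of cells with a UMI was higher in the injured library for Odc1 and Srm in all 5 classes when every cell was thinned to 1800 UMIs, which left out no cell. Odc1 was found in 32.4% of injured and 3.76% of uninjured macrophage and monocyte-like cells, against 58.8% and 7.52% before thinning. Srm was found in 22.8% of injured and 2.40% of uninjured endothelial-like cells, against 60.2% and 5.20% before thinning, and Myc in 9.03% and 0.861%, against 32.3% and 1.95%. In fibro-adipogenic progenitor-like cells the thinned share of Srm was 56.3% injured and 14.6% uninjured. Most cells of these classes thus held no UMI of Myc at a depth of 1800. No class is known to lack these transcripts, so a background share from free RNA could not be set.

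**Figure D4:**
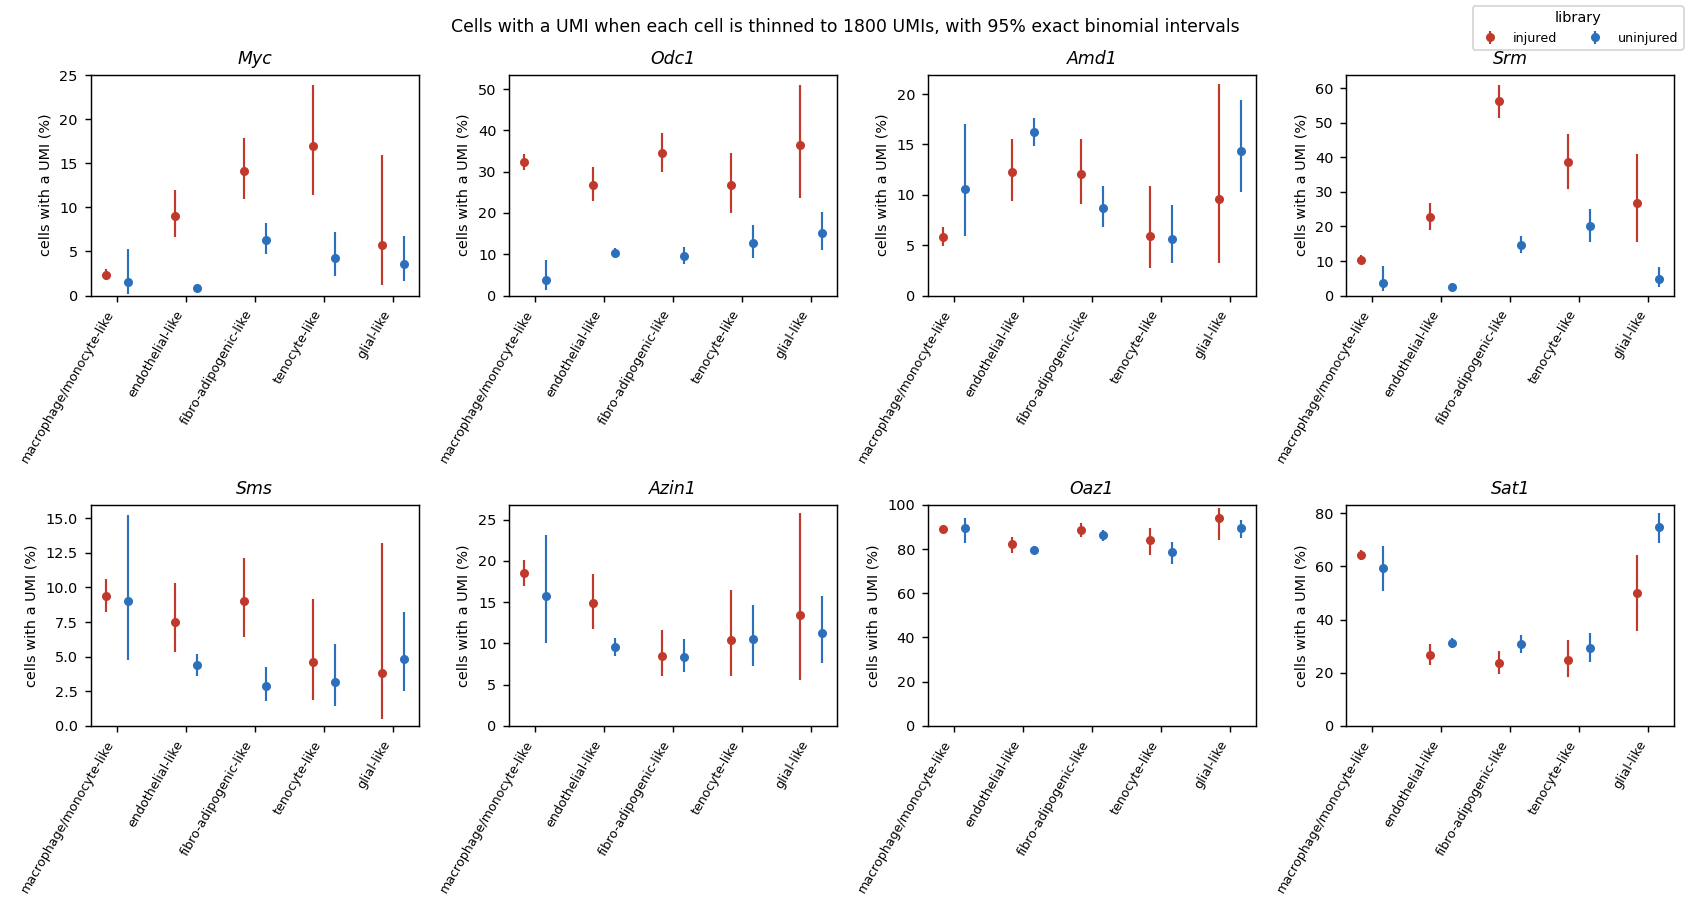
Percent of cells with at least 1 UMI of each gene after thinning each cell to 1800 UMIs, by class, with 95% exact binomial intervals, injured in red and uninjured in blue. The Odc1 and Srm shares are higher in the injured library in all 5 classes, and the Oaz1 shares are near 80% or above in both libraries.

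Genes known as Myc targets were mostly higher in 4 of the 5 classes. Of 24 such genes with at least 20 UMIs, 20 were at least 2-fold higher in endothelial-like cells and 22 in fibro-adipogenic progenitor-like cells, with 0 lower in either. In tenocyte-like cells 18 of 22 were higher and 0 lower. In glial-like cells 13 of 17 were higher and 1 lower, and in macrophage and monocyte-like cells 8 of 24 were higher and 2 lower. In that order of classes 10.8%, 15.4%, 12.7%, 8.54% and 8.51% of all genes tested were higher. Shares of lower genes were 19.9%, 28.2%, 18.2%, 21.7% and 23.6%. The list's median log2 ratio was 1.68, 2.45, 1.65, 1.32 and 0.70 in that order, while all genes had medians between -0.26 and -0.07. Nme1, a nucleoside diphosphate kinase, had 599 CPM injured and 89.4 CPM uninjured in endothelial-like cells, a ratio of 6.70 (6.18 to 7.27). Ncl, the nucleolar protein nucleolin, had 1306 and 170 CPM in fibro-adipogenic progenitor-like cells, 7.68 (7.05 to 8.37). In macrophage and monocyte-like cells the translation factor gene Eif4e was 6.03-fold higher (4.08 to 9.33), and the cyclin gene Ccnd2, more than 10 times higher in another class, was 12.7-fold lower. The list overlaps genes of ribosome production, and ribosomal protein genes took 31.2% of injured and 16.1% of uninjured UMIs in fibro-adipogenic progenitor-like cells and 24.5% and 16.2% in endothelial-like cells. Their part in the list's levels was not tested.

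Of Myc's partners and antagonists, Mxd4, which encodes a Max partner that represses transcription, was lower in all 5 injured classes. Its ratio was 0.147 (0.105 to 0.209) in macrophage and monocyte-like, 0.247 (0.213 to 0.285) in fibro-adipogenic progenitor-like, 0.277 (0.244 to 0.314) in endothelial-like, 0.307 (0.192 to 0.471) in glial-like and 0.470 (0.366 to 0.5999) in tenocyte-like cells. Mxd1, another such repressor, had 129 CPM in injured and 14.5 CPM in uninjured macrophage and monocyte-like cells, 8.85-fold higher (4.49 to 20.5). Mxi1, of the same family, was 5.21-fold higher in macrophage and monocyte-like cells (2.02 to 19.2; 4 uninjured UMIs) and lower in the other 4 classes. Of this list, 3 genes were higher and 2 lower of 8 measured in macrophage and monocyte-like cells. The counts were 0 and 2 of 9 in endothelial-like, 1 and 3 of 9 in fibro-adipogenic progenitor-like, 0 and 3 of 8 in tenocyte-like, and 1 and 3 of 6 in glial-like cells. In the same order of classes 23.6%, 19.9%, 28.2%, 18.2% and 21.7% of all genes were lower, so several of these counts of lower genes are near that background. Among genes of Myc stability and induction, Pim1, a kinase gene induced by cytokines, had 826 CPM injured and 387 CPM uninjured in macrophage and monocyte-like cells, a ratio of 2.14 (1.87 to 2.46). Its ratio was 2.78 (2.098 to 3.73) in tenocyte-like cells and 7.09 (3.96 to 13.4) in glial-like cells, where its level was more than 10 times lower than in another class. That list had 1 gene higher and 2 lower of 9 in macrophage and monocyte-like cells, 0 and 0 of 9 in endothelial-like, 1 and 0 of 9 in fibro-adipogenic progenitor-like, 1 and 0 of 7 in tenocyte-like, and 1 and 1 of 5 in glial-like cells. For both lists, 8.51%, 10.8%, 15.4%, 12.7% and 8.54% of all genes were higher in the classes in this order. Several counts of the stability list are near the shares of higher and lower genes, and each rests on few genes.

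Eif5a, the translation factor that carries hypusine, a residue made from spermidine, was higher in 4 classes. It had 2387 CPM injured and 415 CPM uninjured in fibro-adipogenic progenitor-like cells, a ratio of 5.75 (5.45 to 6.08). The ratio was 4.86 (4.41 to 5.35) in tenocyte-like, 3.05 (2.58 to 3.60) in glial-like and 2.98 (2.85 to 3.12) in endothelial-like cells. Dhps and Dohh, which encode the enzymes that form hypusine, were 2.60-fold (1.96 to 3.48) and 2.07-fold (1.70 to 2.54) higher in fibro-adipogenic progenitor-like cells. Of the 4 hypusine genes, 3 were called higher there and 1 in each of the other classes, with 3 genes measured in tenocyte-like and in glial-like cells. Of all genes, 15.4% were higher in fibro-adipogenic progenitor-like cells and between 8.51% and 12.7% in the other classes. Only Eif5a2 in macrophage and monocyte-like cells was called lower, from 29 injured and 3 uninjured UMIs.

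Genes that supply ornithine differed most in macrophage and monocyte-like cells. Arg1, an arginase that makes ornithine from arginine, had 882 CPM in the injured class and 0 UMIs in the uninjured class, at least 132-fold higher by the lower limit of the 95% interval (7.34 on the log2 scale with the uninjured count set to 3). Arg2, its mitochondrial counterpart, had 54.0 CPM injured and 0 UMIs uninjured, at least 8.04-fold higher by that limit (3.31 on the log2 scale with the count set to 3). The list of ornithine and arginine supply had 2 genes higher of 6 measured here, 2 of 5 in endothelial-like, 2 of 6 in fibro-adipogenic progenitor-like, 1 of 5 in tenocyte-like and 1 of 3 in glial-like cells, and 0 lower. In that order 8.51%, 10.8%, 15.4%, 12.7% and 8.54% of all genes were higher. Arg1 was among the genes called in every class, and was the only one in tenocyte-like (23 injured UMIs) and glial-like cells (20 injured UMIs). Arg1 in the other classes was more than 10 times lower than in macrophage and monocyte-like cells, where free RNA could contribute, which was not tested. In fibro-adipogenic progenitor-like cells Ass1, for argininosuccinate synthase, was 3.79-fold higher (2.70 to 5.47).

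Mtap, which recovers the methylthioadenosine that polyamine synthesis leaves, was 4.43-fold higher (3.43 to 5.80) in fibro-adipogenic progenitor-like, 3.497-fold higher (2.25 to 5.64) in tenocyte-like and 2.51-fold higher (2.06 to 3.06) in endothelial-like cells. Of the genes of the methionine cycle and salvage, 4 of 10 were higher in endothelial-like cells and 4 of 9 in fibro-adipogenic progenitor-like cells, 2 of 10 in macrophage and monocyte-like, 2 of 8 in tenocyte-like and 0 of 7 in glial-like cells. A gene was lower in each of the macrophage and monocyte-like, endothelial-like and glial-like classes. Among antizyme relatives and polyamine oxidation genes, Oaz2 was 2.76-fold lower (2.04 to 3.66) in macrophage and monocyte-like cells and 2.03-fold lower in endothelial-like cells. Smox, spermine oxidase, was 2.87-fold higher (1.67 to 5.40) in macrophage and monocyte-like and 3.29-fold lower in fibro-adipogenic progenitor-like cells. That list had 1 gene higher and 1 lower of 4 in macrophage and monocyte-like cells. It had 0 higher and 1, 3, 1 and 0 lower, of 5, 5, 5 and 3 measured, in endothelial-like, fibro-adipogenic progenitor-like, tenocyte-like and glial-like cells. Of the polyamine transport genes, Slc3a2, an amino acid transporter subunit, was 2.92-fold higher (2.23 to 3.91) in macrophage and monocyte-like cells, 2 of 4 were lower in endothelial-like cells and 1 of 4 in fibro-adipogenic progenitor-like cells, and 0 passed 2-fold in tenocyte-like and glial-like cells. Over the 5 classes, between 8.51% and 15.4% of all genes were higher and between 18.2% and 28.2% lower. Several counts of these lists are near those shares.

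**Figure D5:**
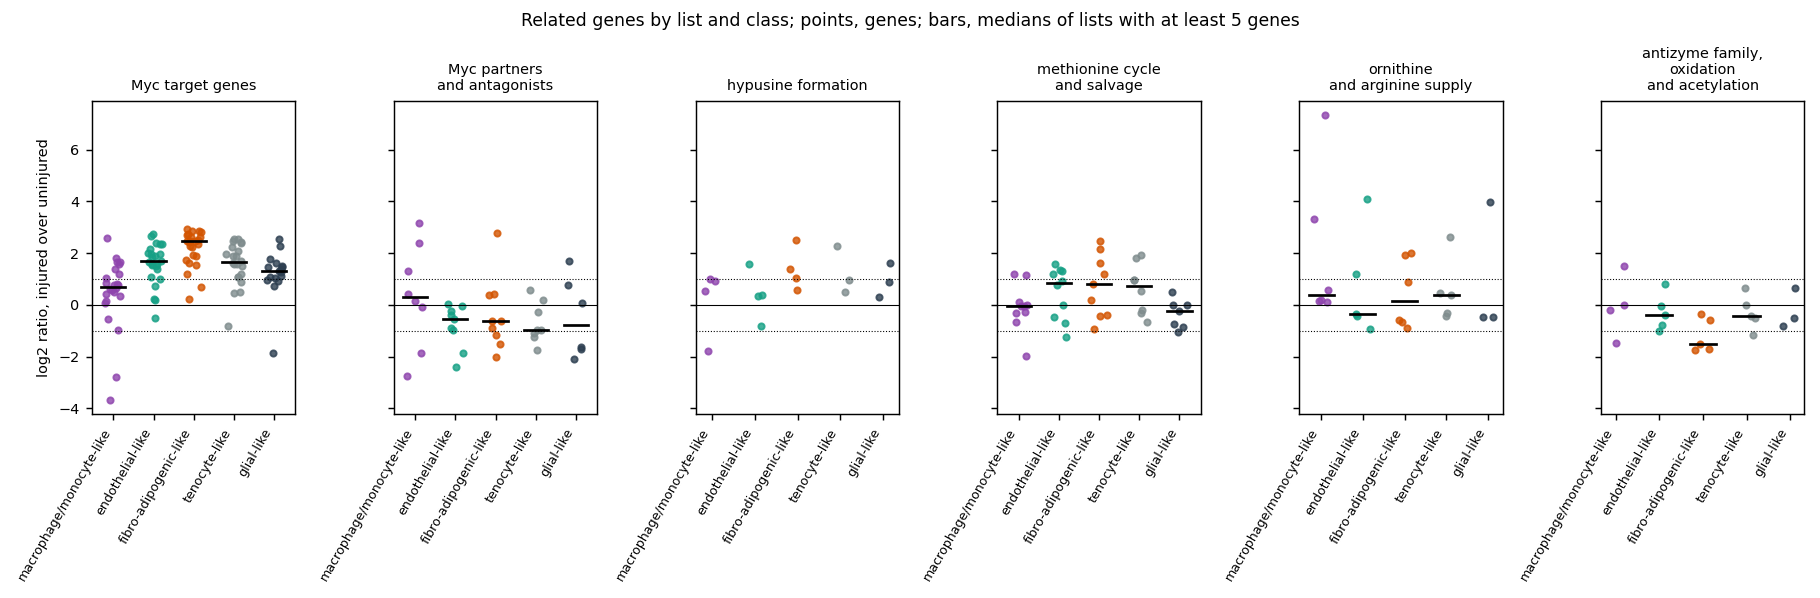
Log2 ratio of injured over uninjured CPM for the genes of 6 lists with at least 20 UMIs, by class; points are genes, bars are medians of lists with at least 5 genes, and dotted lines mark 2-fold. Myc target genes lie mostly above the upper dotted line in all classes except macrophage and monocyte-like cells, and Arg1 is the highest point of the arginine list.

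Markers of other cells and signs of handling also differed between the libraries. Of 16 immediate early and heat shock genes that respond to tissue dissociation, 7 were lower in macrophage and monocyte-like, 9 in endothelial-like, 10 in fibro-adipogenic progenitor-like, 3 in tenocyte-like and 8 in glial-like injured cells, and 1, 0, 1, 0 and 1 were higher. Of all genes 23.6%, 19.9%, 28.2%, 18.2% and 21.7% were lower in those classes, and the tenocyte count is near its share. In endothelial-like cells the 14 macrophage and monocyte markers summed to 250 CPM injured and 39.2 CPM uninjured, with 0 and 4 of them at 0 UMIs. The 10 neutrophil markers summed to 292 and 4.46 CPM there, with 2 and 4 at 0. In macrophage and monocyte-like cells the 12 endothelial markers summed to 478 CPM injured and 1917 CPM uninjured, none at 0. Fibro-adipogenic progenitor markers summed to 21079 CPM injured and 65348 CPM uninjured in tenocyte-like cells, none at 0. In glial-like cells the macrophage and monocyte markers summed to 1981 and 4235 CPM, with 0 and 8 at 0, and in fibro-adipogenic progenitor-like cells the endothelial markers summed to 113 and 1288 CPM, none at 0. Mitochondrial genes took a smaller share of UMIs in each injured class, 2.48% to 4.59% over the 5 injured classes against 4.80% to 6.83% over the uninjured ones. The part of these markers and shares in the results was not tested.

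The genes whose level over the 13 combinations of class and library was most like that of Myc were Eef1d (Pearson r 0.91), 2410015M20Rik (0.87), Rpl3 (0.87), Hsph1 (0.87) and Impdh2 (0.86), among 5924 genes ranked on log2 CPM. Those most like Odc1 were Gm16286 (0.88), Mtch2 (0.84), Wdr83os (0.83), Txnrd1 (0.81) and Dda1 (0.80). Myc had r 0.71 with Srm (rank 145), 0.28 with Odc1 (rank 1802) and -0.66 with Sat1. Odc1 had r 0.50 with Azin1 and 0.45 with Srm. The points include uninjured lymphatic endothelial-like cells, where a single cell held 58.7% of the Odc1 UMIs. The combinations share libraries and depth, so these values only describe the 13 points.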

How the data were processed

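Single-cell 3' RNA libraries of injured and uninjured tibialis anterior, 1 of each, were analysed. The deposited matrices hold UMI counts for each gene and barcode, without normalization, which the authors made with Cell Ranger 2.1.1 on the mm10 build, per the submitters' processing notes. Per the file headers the matrices held 4489 injured and 5581 uninjured barcodes. Summed from their entries, the injured matrix had 39014762 UMIs (lowest barcode 3333) and the uninjured matrix 22994502 UMIs (lowest barcode 1843). The sources used here do not give the threshold for calling cells.

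Rows with the same symbol were added. Barcodes with under 200 genes (64 injured, 178 uninjured; 96.0% and 96.6% haemoglobin UMIs) or over 20% mitochondrial UMIs (4 and 18) were dropped. Scrublet's own threshold marked 1 barcode in each library and so did not work, and the highest scores, 0.8% per 1000 barcodes (161 and 249), were left out instead. Cells were clustered on 2000 variable genes without the 8 genes described, 30 principal components, 15 neighbours and Leiden resolution 1, without integration, giving 32 clusters (scanpy 1.11.5, leidenalg 0.10.2, scikit-learn 1.9.0, Python 3.11.15).

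Clusters were named from 16 marker lists by a rule set after seeing the data. A marker was present at 20% of cells and 2 times the median over clusters, a cluster took the name of the list with the largest share present, and at least 3 were needed. Clusters led by another class's markers, or under 50 cells with no marker of their own among 10 leading genes, stayed unnamed (406 injured and 190 uninjured cells), and clusters with another lineage at 70% of their own share were called mixed (149 and 447).

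UMIs were summed per class and library, with intervals from scipy 1.17.1. Genes with at least 20 UMIs over both libraries were called at 2-fold, after counts under 3 were raised to 3. All 8 genes were described in every class, and at most 4 genes per list and class with the largest change past 2-fold, at least 1 of each direction, could be named, with the 5 genes most like Myc and Odc1. Correlations used log2(CPM + 10) for genes reaching 50 CPM. The genes, lists and tests were chosen with earlier results of these data known. Ratios and intervals were tested on simulated data. Alternatives covered class assignment, filters, clustering, depth and scaling, and their effects follow the report.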

Additional observations from a re-analysis of the deposited data

Results flagged for a closer look

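Amd1 moved in different directions between classes. Its ratio of injured over uninjured CPM was 1.77 in fibro-adipogenic progenitor-like cells, 0.589 in macrophage and monocyte-like cells and 0.622 in endothelial-like cells, and each counting interval excluded equal levels. Oaz1 did so with smaller sizes, at 1.15 in endothelial-like cells, 1.13 in fibro-adipogenic progenitor-like cells and 0.906 in macrophage and monocyte-like cells. With 1 library in each condition the difference between the classes was not tested for either gene. Within endothelial clusters 11 and 12 the Amd1 ratios were 1.30 (0.812 to 2.05) and 0.855 (0.441 to 1.90). Within macrophage and monocyte cluster 18 the Amd1 ratio was 0.805 (0.433 to 1.47). None of these within-cluster ratios excluded equal levels.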

How the results depend on the processing

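No paired analysis was possible because each condition had 1 library, and no replicate could be left out. Ratios were recomputed under 13 other settings, which for glial-like cells left 11, since under 50 cells remained at Leiden resolution 0.5 and among cells above the lowest UMI count of the injured library. Of the resulting ratios of the 8 genes, 445 stayed within the interval of the value given and 59 moved outside it, and no called direction turned. Of the counts of genes called, 121 were kept within 1.5 times and 5 moved. Of the counts over the other gene lists, 151 were kept within 1.5 times and 29 moved under another UMI minimum. With cells thinned to 1000 UMIs, 5 genes instead of 3 were higher in endothelial-like cells, 4 instead of 2 in glial-like cells, and 1 instead of 0 was lower in macrophage and monocyte-like cells. With cells assigned by their own marker score, 1 gene was lower in macrophage and monocyte-like cells. Without ribosomal, mitochondrial and haemoglobin genes in the total, 4 genes were higher in glial-like cells. The shares of all genes called under these settings are not given here, and the cause of these moves was not tested. The Odc1 and Srm calls of macrophage and monocyte-like and fibro-adipogenic progenitor-like cells, and the Myc calls of endothelial-like, fibro-adipogenic progenitor-like and tenocyte-like cells, were kept in all 13 settings. Ratios within clusters 12, 18 and 21, with under 50 cells in 1 library, were added after seeing the data. Odc1 in cluster 18 (5.56) and Myc in cluster 12 (1.32) were smaller there than in their classes (19.9 and 7.77), and Azin1 in cluster 18 turned to 0.671. Few UMIs limit uninjured macrophage and monocyte-like cells, where Myc, Odc1 and Srm had 8, 10 and 11.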

Other observations

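Cluster 9, unnamed, held 399 injured cells led by Klrd1, Cd209a and class II antigen presentation genes. Its levels were 178 CPM of Odc1, 76.1 CPM of Srm, 11.5 CPM of Myc and 467 CPM of Sat1. Cluster 22, with muscle fibre and endothelial markers, had 77.5 CPM of Odc1, 11.1 CPM of Srm and 993 CPM of Oaz1 in 116 uninjured cells. In uninjured lymphatic endothelial-like cells the top cell held 53.9% of the 13 Myc UMIs.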
